A study of Gossypium barbadense and Gossypium hirsutum with 4 samples.

Results

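The 36 probe sets whose names start with GbaAffx are those of the Affymetrix cotton array that were designed from *G. barbadense* sequences. They were taken by name alone, out of 24132 probe sets on the array, of which 103 Affymetrix controls (names starting with AFFX) were set aside and 24029 were compared. Fibers of *G. barbadense* (*Gb*, variety VH8-4602) and *G. hirsutum* (*Gh*, variety Guazuncho 2) were collected from untreated glasshouse plants at 11 dpa (days post anthesis, the age in the labels and methods, where another passage of the study has 10), and each genotype was hybridized to 2 arrays. These are the arrays V.1 and V.2 of *Gb* and G.30 and G.29 of *Gh*, each with RNA pooled from 4 plants, so that differences between plants within a pool were not measured. The question put to these probe sets was whether probes made from *Gb* sequence gave a higher signal in *Gb* fibers.

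Both species are allotetraploids that carry an A and a D sub-genome, and most of their genes have close counterparts in each other. An Affymetrix array reads a transcript through several short oligonucleotides, which together form a probe set, and a probe copied from one species can bind a transcript of the other less well where the sequences differ. A name ending in _at marks a probe set made for a single transcript, _s_at one whose probes are shared by several transcripts, and _x_at one with some probes that can cross-hybridize. Of the GbaAffx probe sets, 11 ended in _at, 19 in _s_at and 6 in _x_at, against 53.0%, 38.6% and 6.46% of the other probe sets. They came from 25 sequence clusters, given by the first number in the name. A single probe set represented 17 of these clusters, and the other 19 probe sets shared 8 clusters, so that they are not independent readings. Neither a gene name nor a probe sequence was used for any of them here, and the roles of their transcripts are not described.

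Signals are given on the log2 scale as normalized by gcrma, and differences are *Gb* minus *Gh*, so that a negative value is a higher signal in *Gh*. Signals under 4 were regarded as too dim to measure. This level is called the floor, and a probe set is called below it in a genotype where both arrays of that genotype were under 4, and above it where neither genotype was below. Genotype differences were tested by limma, whose estimate of the spread draws on all 24029 probe sets, at a threshold of 0.05 for the Benjamini-Hochberg adjusted p. These p-values measure the spread between 2 RNA pools per genotype. An exact permutation test of 2 arrays against 2 cannot give a two-sided p below 0.333. The probe sets named alpha-expansin, lipid transfer protein or beta-tubulin in the part of the array annotation used here, 8 in all, had log2 signals of 6.25 to 13.6 in *Gb* and 7.73 to 14.7 in *Gh*. They are typical of elongating fiber, although these annotated rows hold only probe sets higher in *Gh*. No marker of green tissue or seed was named in the same rows, so that other tissues could not be judged. The cotton control transcripts carry probes at their 5' and 3' ends, and the 5' minus 3' signal is a sign of RNA quality. In 4 of the 6 controls neither *Gb* array reached the value of a *Gh* array, and the mean differences between the genotypes were -1.18 to 0.18 over the 6. The part of RNA quality in the differences of the GbaAffx probe sets was not tested.

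The GbaAffx probe sets did not read higher in *Gb* as a group. The median difference over the 36 was 0.034, against 0.037 over the other 23993 probe sets, and 22 of them (61.1%) had a higher mean in *Gb*, against 70.2% of the others. Of the 36, 5 (13.9%) passed the limma threshold, while 20.3% of all probe sets did. Those higher in *Gb* were 2, against a background of 11.4% of all probe sets, and those higher in *Gh* were 3, against 8.87%. Both *Gb* arrays lay above both *Gh* arrays for 19 of the 36, beside 62.3% of all probe sets, and below both *Gh* arrays for 8, beside 19.7%. In pooled fiber RNA, fewer expressing cells and less RNA per cell cannot be told apart.

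Some of the small positive differences came from dim probe sets. A total of 8 GbaAffx probe sets (177.1.S1_at, 196.1.A1_at, 196.1.A1_s_at, 200.1.S1_x_at, 207.1.S1_s_at, 211.1.S1_at, 211.1.S1_s_at and 212.1.S1_at) lay below the floor on all 4 arrays. All 8 had a slightly higher mean in *Gb*, by 0.033 to 0.34, and none passed the threshold. The largest of these differences was that of 207.1.S1_s_at, with 2.86 and 3.22 in *Gb* and 2.62 and 2.79 in *Gh*, and the other 7 were at most 0.10. The mean was also higher in *Gb* for 88.6% of the other probe sets below the floor in both genotypes, whose median difference was 0.036. Above the floor, 13 of 27 GbaAffx probe sets had a higher mean in *Gb* (48.1%, median difference -0.033), against 55.3% of the 11999 others (median difference 0.056). The 5 calls made up 18.5% of these 27, against 35.6% of the others above the floor.

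Each GbaAffx probe set was then set beside the other probe sets whose mean signal lay within 0.5 of its own, which were 7 to 8910 in number. In 18 of the 36 cases its difference lay above the median of these neighbors. A single one, GbaAffx.197.1.S1_s_at, fell below their 5th percentile, and none exceeded their 95th. With neighbors within 1 of the mean signal, 4 lay outside these limits, 197.1.S1_s_at below and 198.1.S1_s_at, 201.1.S1_at and 207.1.S1_s_at above. In the last of these, all 4 arrays were under the floor, and in 201.1.S1_at both *Gh* arrays were. The GbaAffx probe set closest to the upper limit was 198.1.S1_s_at, whose difference exceeded that of 1384 of 1459 neighbors.

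Among probe sets designed from other species, 33.3% of the 69 made from *G. arboreum* (A genome), 25.2% of the 16800 made from *G. hirsutum* and 8.77% of the 7068 made from *G. raimondii* (D genome) passed the threshold. The *G. raimondii* design is largely dim, with 72.5% of its probe sets below the floor in both genotypes, against 22.2% of GbaAffx, 21.7% of *G. arboreum* and 34.9% of *G. hirsutum* probe sets. Above the floor, the shares that passed were 18.5% for GbaAffx (27 probe sets), 42.3% for *G. arboreum* (52), 36.8% for *G. hirsutum* (10182) and 28.5% for *G. raimondii* (1761). The median difference above the floor was -0.033 for GbaAffx, -0.033 for *G. arboreum*, 0.061 for *G. hirsutum* and 0.033 for *G. raimondii*. These are counts, and no test of the difference between designs was made.

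The largest difference went against the species of the design. GbaAffx.197.1.S1_s_at had log2 signals of 3.5 (V.1) and 4.84 (V.2) in *Gb*, against 12.53 (G.30) and 12.55 (G.29) in *Gh*. The *Gh* arrays were bright and close to each other, whereas the *Gb* arrays lay on either side of the floor. The difference was -8.37 (standard error 0.54, n = 2 arrays per genotype, 95% interval -10.06 to -6.68, limma adjusted p = 0.009). The fold is uncertain because V.1 was under the floor. It was 278-fold with *Gh* above when V.1 was set to the floor, 208-fold without V.1 (difference -7.70) and 526-fold without V.2 (difference -9.04, with the remaining *Gb* signal under the floor). None of its 1662 neighbors in mean signal had a lower difference, and 8 of all 24029 probe sets did. It was the single GbaAffx probe set that passed the threshold with a difference of at least 1, beside 8.23% of all probe sets. The name marks it as one whose probes are shared by several transcripts, and which transcript gave the *Gh* signal was not determined.

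The other 4 calls were differences of less than 2-fold. GbaAffx.179.1.S1_at had 8.79 and 8.93 in *Gb*, against 9.46 and 9.74 in *Gh*. Its difference was -0.73 (standard error 0.13, limma adjusted p = 0.0488), or 1.66-fold with *Gh* above, and it was the only call on a probe set made for a single transcript. GbaAffx.183.1.S1_s_at had 11.30 and 11.46 in *Gb*, against 11.90 and 11.83 in *Gh*. Its difference was -0.49 (standard error 0.07, limma adjusted p = 0.0376), or 1.40-fold with *Gh* above. In both, the gap between the genotypes was larger than that between the arrays of either genotype.

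Higher in *Gb* were GbaAffx.189.1.S1_s_at and GbaAffx.213.1.S1_s_at. The first had 10.94 and 10.76 in *Gb*, against 10.34 and 10.40 in *Gh* (difference 0.48, standard error 0.08, limma adjusted p = 0.0447), a 1.39-fold higher signal in *Gb*. The second had 10.14 and 10.05 in *Gb*, against 9.78 and 9.67 in *Gh* (difference 0.36, standard error 0.06, limma adjusted p = 0.0468), a 1.29-fold higher signal in *Gb*. The genotypes did not overlap in either. These small calls were close to the threshold: those of 183, 189 and 213 were lost whichever of the 4 arrays was left out, and that of 179 without V.1, V.2 or G.29. The call of 197 remained in each case. The differences of 183 were -0.56 to -0.41 in these fits, those of 189 were 0.39 to 0.57, those of 213 were 0.31 to 0.42 and those of 179 were -0.87 to -0.59.

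The largest positive differences belonged to clusters 198 and 201, and none of them passed the threshold. GbaAffx.198.1.S1_at had 6.74 (V.1) and 5.19 (V.2) in *Gb*, against 4.43 and 5.04 in *Gh*. GbaAffx.198.1.S1_s_at had 11.36 and 10.27 in *Gb*, against 9.57 and 9.98 in *Gh*, and GbaAffx.198.1.S1_x_at had 6.87 and 5.84 in *Gb*, against 5.10 and 5.55 in *Gh*. All 3 were high on V.1 and closer to *Gh* on V.2, without overlap between the genotypes. Their differences were 1.23, 1.04 and 1.04, with limma adjusted p of 0.323, 0.259 and 0.25. The 95% interval for 198.1.S1_s_at was -0.42 to 2.50. Since they share a cluster, they are not 3 independent readings. Without V.1 their differences were 0.46, 0.50 and 0.52, in the same order.

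In cluster 201 the other *Gb* array was high. GbaAffx.201.1.S1_s_at had 5.29 (V.1) and 7.79 (V.2) in *Gb*, against 5.12 and 5.54 in *Gh*, and GbaAffx.201.1.S1_at had 3.74 and 4.92 in *Gb*, against 3.04 and 3.05 in *Gh*. The first overlapped between the genotypes (difference 1.21, 95% interval -1.98 to 4.41, limma adjusted p = 0.433) and was at -0.037 without V.2. The second was the only GbaAffx probe set below the floor in exactly 1 genotype, here *Gh*. Its V.1 signal in *Gb* was itself under the floor. Its mean signal in *Gb*, 4.33, was 1.26-fold above the floor, which gives no firm lower bound for the difference (limma adjusted p = 0.194). It passed the threshold without V.1 (difference 1.88), where the remaining *Gb* array was assumed to vary as little as the *Gh* arrays. The same fit without V.2 also put it past the threshold (difference 0.70), but all 3 signals left were under the floor, so that no measurable difference remained.

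The *Gb* arrays differed from each other in several of these probe sets. A total of 6 GbaAffx probe sets (16.7%) differed at least 2-fold between V.1 and V.2, beside 0.828% of all probe sets. They belong to 3 clusters, 197, 198 and 201. In 3 of the 6 the V.1 array was higher and in the other 3 the V.2 array. Between the *Gh* arrays no GbaAffx probe set differed 2-fold, the largest gap being 0.615 (198.1.S1_at), and 0.662% of all probe sets did so. The gap between the *Gb* arrays exceeded that between the *Gh* arrays in 28 of the 36 (77.8%), against 58.3% of the other probe sets. Among the other 30 GbaAffx probe sets the largest gap between the *Gb* arrays was 0.515. This pattern was noticed in the values, its cause was not tested, and 3 clusters are few.

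Several clusters allowed a comparison of differences read by probe sets of different kinds. In 6 of the 8 clusters with more than 1 probe set the differences had the same sign. Among these, clusters 196 and 211 lay below the floor on all 4 arrays. The mean was also higher in *Gb* for 88.6% of the other probe sets below the floor in both genotypes. In cluster 201, GbaAffx.201.1.S1_s_at overlapped between the genotypes and turned its sign without V.2. GbaAffx.16.1.S1_at had 10.50 and 10.27 in *Gb*, against 10.74 and 10.83 in *Gh*, and GbaAffx.16.1.S1_s_at had 7.97 and 7.75 in *Gb*, against 8.36 and 8.26 in *Gh*. Their differences of -0.40 and -0.45 were alike and without overlap, but did not pass the threshold (limma adjusted p of 0.103 and 0.0823). Cluster 18 was split. GbaAffx.18.1.S1_at had 10.65 and 10.78 in *Gb*, against 10.26 and 10.53 in *Gh*, and GbaAffx.18.1.S1_x_at had 10.71 and 10.69 in *Gb*, against 10.28 and 10.44 in *Gh*. The *Gb* arrays lay above in both, by a mean of 0.32 and 0.34 (limma adjusted p of 0.206 and 0.0705), while GbaAffx.18.1.S1_s_at had 12.50 and 12.52 in *Gb*, against 12.58 and 12.66 in *Gh*, a difference of -0.11 (limma adjusted p = 0.204). Cluster 2, with differences of -0.033 (_at), 0.031 (_x_at) and 0.21 (_s_at), was the other one with both signs, and the genotypes overlapped in all 3 of its probe sets. GbaAffx.2.1.S1_s_at, for example, had 11.46 and 11.26 in *Gb*, against 11.02 and 11.27 in *Gh*. In clusters 175, 196 and 211 the differences read by the probe sets of a cluster were within 0.041 to 0.13 of each other. The signals of clusters 196 and 211 were too dim to measure.

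GbaAffx.190.1.S1_x_at had 16.16 and 16.14 in *Gb*, against 16.13 and 16.13 in *Gh*. The maximum over all probe sets was 16.16 on V.1 and 16.13 on G.29, so that this probe set lay at the upper end of what the arrays recorded, and its near equal signals say nothing about whether the transcript differed. GbaAffx.6.1.S1_s_at had 15.49 on both *Gb* arrays, against 15.37 and 15.33 in *Gh*, a difference of 0.14 with an adjusted p of 0.0702 from limma. GbaAffx.175.1.S1_s_at (14.89 and 14.79 in *Gb*, 14.90 and 14.94 in *Gh*) and GbaAffx.171.1.S1_s_at (14.08 and 13.63 in *Gb*, 13.97 and 13.86 in *Gh*) had differences of -0.080 and -0.055. In the first both *Gb* arrays lay below both *Gh* arrays, and in the second they lay on either side.

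The remaining GbaAffx probe sets above the floor did not pass the threshold either. GbaAffx.186.1.S1_s_at had 11.63 and 11.25 in *Gb*, against 11.09 and 11.10 in *Gh*, with no overlap and a difference of 0.35 (limma adjusted p = 0.263). GbaAffx.19.1.S1_s_at had 12.43 and 11.94 in *Gb*, against 12.41 and 12.39 in *Gh*, so that a single *Gb* array lay low (difference -0.22, limma adjusted p = 0.454). The V.2 array was the lowest of the 4 in GbaAffx.159.1.S1_x_at too, which had 6.97 and 6.46 in *Gb*, against 6.84 and 6.96 in *Gh*, and in GbaAffx.172.1.S1_s_at, which had 12.20 and 11.90 in *Gb*, against 12.18 and 12.25 in *Gh*. GbaAffx.175.1.S1_at, with 6.99 and 6.74 in *Gb* and 7.05 and 7.11 in *Gh*, had a difference of -0.21 (limma adjusted p = 0.288). GbaAffx.173.1.S1_s_at was nearly level, with 12.00 and 12.12 in *Gb* and 12.12 and 12.06 in *Gh*. Over the 22 GbaAffx probe sets above the floor that did not pass the threshold, differences ran from -0.45 to 1.23, with 11 higher in each genotype.

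The reading of small differences depends on the level at which the arrays are set equal. The hybridization controls, transcripts added to every sample, were higher by 0.28 on the *Gb* arrays, and scaling to them takes this amount from every difference. The median difference of the GbaAffx probe sets was then -0.24, as was that of all probe sets, and 11 of the 36 had a higher mean in *Gb* in place of 22. The calls of 189 (difference 0.20) and 213 (difference 0.087) were lost, and those of 179, 183 and 197 were kept. The 5 probe sets of clusters 198 and 201 passed the threshold, although their differences fell to between 0.76 and 1.01. The mean of the controls was 10.89 on V.1, 10.81 on V.2, 10.48 on G.30 and 10.66 on G.29. Scaling therefore also changed the spread between arrays of a genotype, on which the p-values rest. Why these 5 passed was not tested. In all, 15 of the 36 (41.7%) then passed, against 31.3% of all probe sets, while on the deposited scale the members' share lay below the background. The 15 include the 5 of clusters 198 and 201, which are not independent readings. No test of the difference between these shares was made.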

How the data were processed

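Per the study's methods, the authors hybridized RNA of 11 dpa fibers to 4 Affymetrix cotton arrays and normalized the data in R by gcrma. The submitters' processing notes list GCRMA, with no version in the sources used here. The deposited table holds a log2 signal per probe set and array and no detection call. Precision is limited by the number of arrays. Neither labels nor headers name a batch or a pairing.

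All 24029 probe sets other than AFFX controls were fitted in R 4.3.3 with limma 3.58.1 (lmFit, then eBayes, two-sided, no covariate, Benjamini-Hochberg), which was first tested on simulated data. The rest was described in Python 3.11.15. The rule for named probe sets took those past the threshold, the 5 largest differences per direction, the 5 highest in signal and those below the floor in exactly 1 genotype. The other GbaAffx probe sets are given in addition. The members and lists were chosen with earlier results of these data known. Names of fiber markers came from 1159 annotated rows of a supplementary table, none of them GbaAffx. No probe sequence was used here.

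As alternatives, p-values were adjusted by Bonferroni, or came from the methods' t-test (common variance, leaving out probe sets of extreme variance by limits chosen here) or from a trend or robust prior. Dim probe sets were removed unless 2 arrays reached log2 5. Arrays were scaled to their medians, by cyclic loess or to hybridization controls. Probe sets made for a single transcript, a minimum difference of 1, other floors and signal windows, and leaving out each array were also tried. Without an array, the lone one was assumed to vary like the other genotype. Leaving out the lowest member, or the clusters of the 5 highest, was chosen after seeing the data.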

Additional observations from a re-analysis of the deposited data

How the results depend on the processing

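Against 5 GbaAffx probe sets past the threshold (2 higher in *Gb*, 3 higher in *Gh*; 13.9%, beside 20.3% of all probe sets), Bonferroni adjustment in limma left 0 (0 and 0, beside 0.137%), where 9 had an unadjusted p under 0.05. The methods' t-test left out all GbaAffx probe sets of clusters 197, 198 and 201 for their variance, so that these were not tested by it. It called 10 (6 higher in *Gb*, 27.8%, beside 31.5%) with the Benjamini-Hochberg adjustment. With the Bonferroni adjustment it called 1 (0 higher in *Gb*, 1 higher in *Gh*, 2.78%, beside 17.4%). The robust prior gave 2 (0 higher in *Gb*; 5.56%, beside 18.4%), and cyclic loess 2 (0 higher in *Gb*; 5.56%, beside 17.4%). The filter on dim probe sets gave 8 of 27 (5 higher in *Gh*; 29.6%, beside 49.1%), and array medians 7 (4 higher in *Gb*; 19.4%, beside 24.9%). Hybridization controls gave 15 (5 higher in *Gb*, 10 higher in *Gh*, 41.7%, beside 31.3%). With left-out probe sets counted as not called, it was the only one of these settings where the members' share exceeded that of all probe sets. For the t-test, the shares among the probe sets it kept were not computed, and their order could differ. Probe sets made for a single transcript gave 0 of 11 (0 and 0, with 2 at an unadjusted p under 0.05, beside 15.7%), and a difference of at least 1 gave 1 (0 higher in *Gb*, 1 higher in *Gh*; 2.78%, beside 8.23%). Without 1 array there were 2 to 3 calls (5.56% to 8.33%, beside 10.6% to 16.4%), of which 0 to 2 had *Gb* above and 1 to 2 had *Gh* above. Apart from construction (fewer probe sets or arrays, a stricter rule), the cause was not tested.

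The median difference of 0.034 was -0.033 with the filter, 0.115 with array medians, -0.0085 with cyclic loess, -0.244 with hybridization controls and 0.040 to 0.066 without 1 array. Of the named probe sets, none that passed the threshold turned its sign. Among the others, GbaAffx.171.1.S1_s_at was at 0.026 with array medians and at -0.28 to 0.17 without 1 array (0.0017 without G.30). GbaAffx.175.1.S1_s_at was at 0.0015 with array medians, and GbaAffx.201.1.S1_s_at at -0.037 without V.2 and 2.47 without V.1. GbaAffx.190.1.S1_x_at was at -0.013 with cyclic loess and -0.26 with hybridization controls, and GbaAffx.6.1.S1_s_at at -0.14 with hybridization controls. With a floor of 5, 1 GbaAffx probe set was below it in *Gb* alone and 0 in *Gh* alone. With neighbors within 1 of the mean signal, 4 GbaAffx probe sets (1 below, 3 above) lay outside their 5th to 95th percentile, in place of 1. No paired analysis was possible because the array numbers of the genotypes do not match.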
